A study of Danio rerio with 4 samples.

Results

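Krüppel-like factors (Klf) are zinc finger transcription factors that bind CACCC and GC-rich elements in promoters. Different members act in the skin barrier, in blood vessels that sense flow, in blood formation and in the response to steroid hormones. The 10 genes described here are *klf4*, *klf2a*, *klf2b*, *klf3*, *klf5a*, *klf6a*, *klf9*, *klf11b*, *klf13* and *klf17*, out of 31901 genes counted. They were chosen by their read counts and longfin to wildtype differences in these same libraries, so those values are given as a description, no p-value is given for them and nothing is built on them.

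The RNA came from caudal fins of adult zebrafish (*Danio rerio*) that were regrowing 96 hours after amputation. The 2 longfin heterozygous libraries came from fish with 1 copy of *longfin*, an allele that gives overgrown fins, and the 2 wildtype libraries from clutchmates without it. All fish carried sp7:eGFP, an osteoblast reporter, and only the GFP-negative tissue at the distal tip was taken, 4 fins to a library. The labels do not tell whether the pools of a genotype stem from different clutches or dates. The p-values below therefore reflect the spread among these libraries alone, which may be technical.

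Reads in genes numbered 19428186 to 23157979 per library, and levels below are read counts scaled to library size (CPM), with TMM scaling between libraries. The study's title names ectopic *kcnh2a* expression, and of 2 gene IDs named KCNH2, one was read 7 and 21 times in longfin replicates 1 and 2 and 0 and 1 times in wildtype, and the other 1 to 4 times in every library. The fin mesenchyme gene *and1* stood at 8332 to 11487 CPM, and the osteoblast gene SP7 was still read at 45.4 to 57.4 CPM in this GFP-negative tissue. Of the listed genes, *klf17* and *klf2b* lie on the chromosome of *kcnh2a* in RefSeq's GRCz12tu assembly, and 0 of the 10 lie within 1 Mb of it.

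The name table pairs 8 of the 10 genes with 1 ID each. It gives the symbols KLF5 and KLF11 to 2 IDs each and does not say which is *klf5a* or *klf11b*, so both IDs are reported, which makes 12 counted genes. Of these 12, 11 passed the low count filter. The remaining one, KLF5 (ENSDARG00000062106), was covered by 5 and 3 reads in longfin and by 9 and 11 in wildtype.

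In the longfin heterozygotes *klf4* was the listed gene with the largest difference. *klf9*, *klf2a* and *klf6a* stood at 0.211, 0.481 and 0.738 times their wildtype levels, with a wide spread between the *klf9* libraries of each genotype. Both KLF11 genes were higher, and *klf2b*, *klf3*, *klf13*, *klf17* and the abundant KLF5 gene overlapped between genotypes. With edgeR's quasi-likelihood fit adjusted over all 18366 tested genes, 2 of the 11 passed a threshold of 0.05, *klf4* as lower and KLF11 (ENSDARG00000013794) as higher. Over all tested genes 0.403% passed, 0.294% as lower and 0.109% as higher. The genes were chosen on this same contrast, so these calls are part of the description and nothing is read from their number. In 6 of the 11 the genotypes were apart, with 4 lower and 2 higher in longfin, against 39.8% of all tested genes (19.8% lower and 20.0% higher). The median log2 fold change of longfin over wildtype was -0.12 over the 11 genes and -0.0015 over all tested genes.

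**Figure D1:**
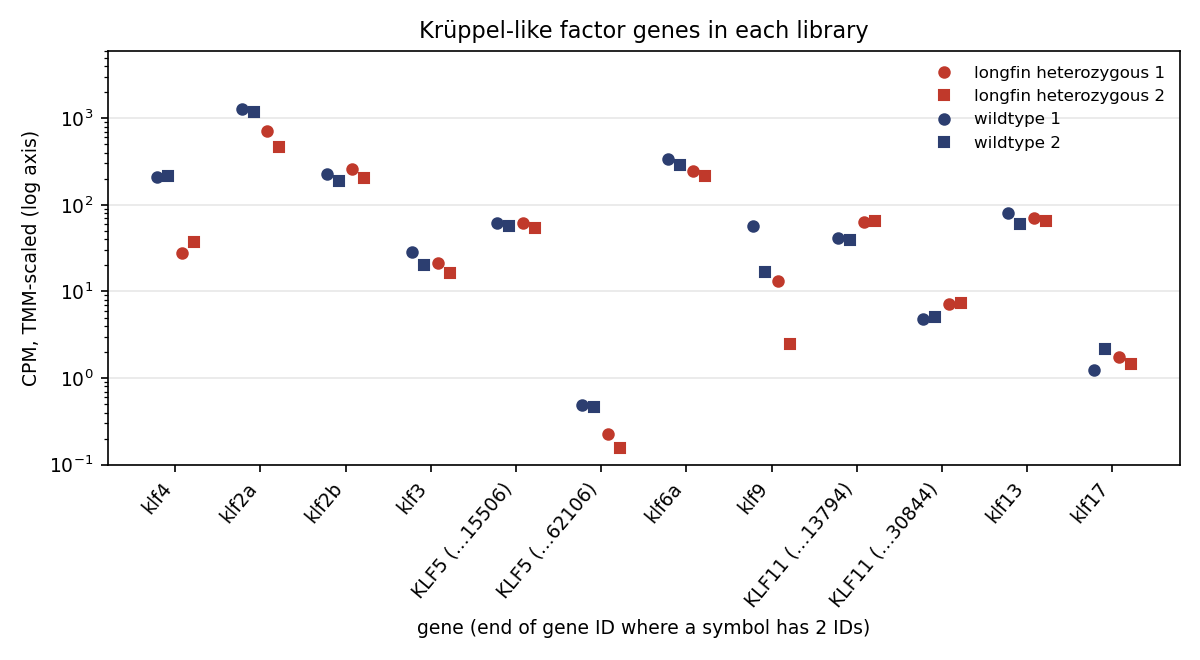
Level of each listed Krüppel-like factor gene in each of the 4 libraries, as TMM-scaled CPM on a log axis, with wildtype in blue, longfin heterozygous in red, circles for replicate 1 and squares for replicate 2. The longfin points of *klf4* (28.1 and 37.6 CPM) lie far below its wildtype points (208 and 217 CPM), while the points of *klf2b*, *klf13* and *klf17* interleave.

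*klf4* (ENSDARG00000079922) encodes a factor that in mammals drives the terminal differentiation of the epidermal barrier. It had 28.1 and 37.6 CPM in longfin replicates 1 and 2 and 208 and 217 CPM in wildtype replicates 1 and 2. Both longfin libraries lay far below both wildtype libraries, and the gap was many times the spread within either genotype. The wildtype mean of 212 ± 6.33 CPM (SD, n = 2) was 6.46 times the longfin mean of 32.9 ± 6.68 CPM (n = 2). The log2 fold change was -2.69 ± 0.14 (SE). With any 1 library left out it lay between -2.91 and -2.50.

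Levels of other superficial epidermal genes stood beside that of *klf4*. In a list of superficial and intermediate epidermal genes that leaves out *klf4*, 24 genes were tested and 3 passed as lower and 0 as higher in edgeR over all genes, where 0.294% of tested genes passed as lower. The 3 were *pkp3a*, a plakophilin gene of desmosomes (log2 fold change -1.05 ± 0.09 SE, adjusted p = 0.00908), the membrane protease gene *tmprss13b* (-1.74 ± 0.18, adjusted p = 0.020) and the annexin gene ANXA1 (-0.61 ± 0.08, adjusted p = 0.0383). Their values were known when the list was written. Without either longfin library 0 of the 24 passed, and without wildtype replicate 1 the count was 2. In the list 20 genes were below 0 and 4 above, with a median of -0.27. This list and the gene lists below were written with earlier results of these data known. Their counts, medians and sums are therefore a description and not a test. The summed level of the 26 superficial and intermediate genes was 12735 and 13793 CPM in the longfin libraries and 16349 and 16943 CPM in wildtype, with 0 of the 26 at 0 reads. In a bulk sample, fewer superficial cells and less RNA per cell cannot be told apart, and the part of cell numbers in the *klf4* value was not tested.

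Genes of the basal epidermis and of the fin mesenchyme were read in the same way. The 14 basal genes summed to 17578 and 17647 CPM in the longfin libraries and 17572 and 18911 CPM in wildtype. The keratin gene *krt5* alone made up 9094 and 10021 CPM of the longfin sums and 9217 and 11854 CPM of the wildtype sums. Of the 14, 0 passed edgeR over all genes, while an unadjusted p under 0.05 was reached by 0 as higher and 3 as lower. The genotypes were apart in 4 as lower and 1 as higher, against 19.8% and 20.0% of all tested genes. Over all tested genes an unadjusted p under 0.05 was reached by 9.47%, 3.65% as higher and 5.82% as lower. Fin mesenchyme genes summed to 35528 and 35827 CPM in longfin and to 31812 and 31769 CPM in wildtype. The gene *and1* alone made up 11487 and 10260 CPM of the longfin sums and 8859 and 8332 CPM of the wildtype sums. Of the 19 tested fin mesenchyme genes 0 passed edgeR over all genes, and 8 higher and 1 lower genes had an unadjusted p under 0.05.

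**Figure D2:**
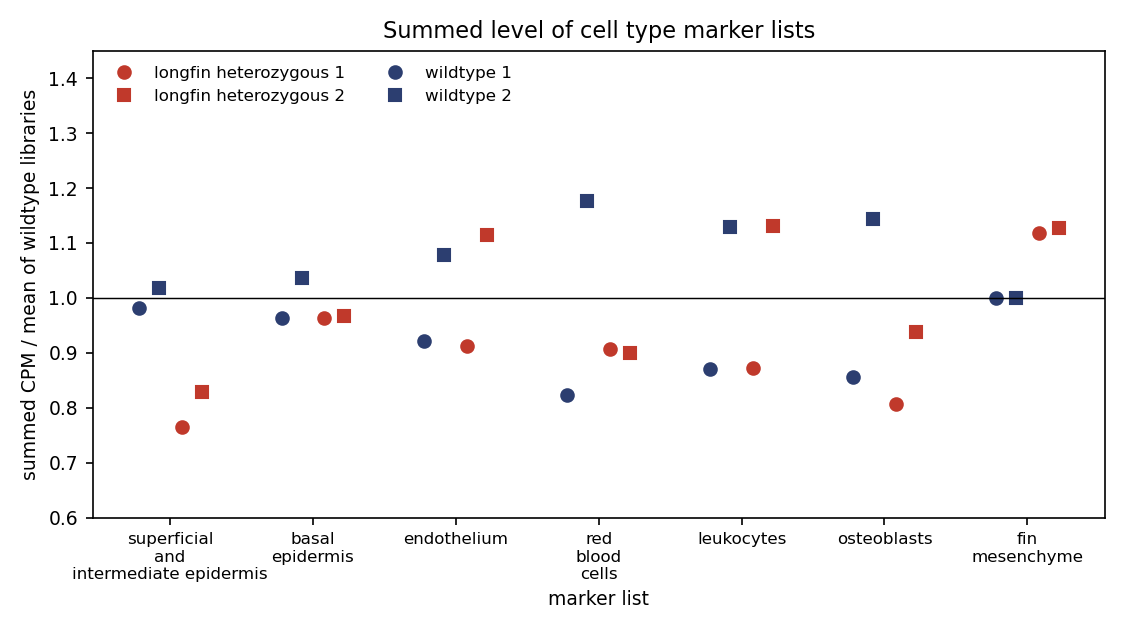
Summed CPM of each cell type marker list in each library, divided by the mean of the wildtype libraries, with wildtype in blue and longfin heterozygous in red. The longfin points lie below the wildtype points for superficial and intermediate epidermis and above them for fin mesenchyme, and the genotypes overlap for endothelium, red blood cells, leukocytes and osteoblasts.

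*klf2a* and *klf2b* are the zebrafish copies of KLF2, which in endothelium is induced by blood flow and keeps vessels quiescent. *klf2a* (ENSDARG00000042667) had 712 and 469 CPM in the longfin libraries and 1291 and 1166 CPM in wildtype. Both longfin values lay below both wildtype values, and the longfin libraries differed from each other by 1.52-fold. The wildtype mean of 1228 ± 88.3 CPM was 2.08 times the longfin mean of 591 ± 172 CPM, a log2 fold change of -1.06 ± 0.21 (SE). This did not pass edgeR's threshold over all genes and did pass with DESeq2, which called 1.62% of the 18009 genes it gave an adjusted p. The gene was chosen on this contrast, so both outcomes are part of the description and not a test. The fold change was -0.79 without longfin replicate 2 and -1.39 without longfin replicate 1.

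*klf2b* (ENSDARG00000040432) had 259 and 205 CPM in the longfin libraries and 224 and 188 CPM in wildtype. The genotypes overlapped, and the log2 fold change of 0.17 ± 0.14 (SE) was close to the spread within genotypes. Without longfin replicate 1 it was -0.011. For each read of *klf2b* there were 2.75 and 2.29 reads of *klf2a* in the longfin libraries and 5.76 and 6.19 in wildtype. Gene lengths cancel when this ratio is compared between libraries. Its genotypes did not overlap, which restates the *klf2a* difference. Both genes were chosen on this contrast, so the ratio is part of the description and not a separate result.

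The summed level of endothelial markers overlapped between genotypes. The 27 endothelial genes summed to 262 and 320 CPM in longfin and 265 and 310 CPM in wildtype. *klf2a* alone, with 712 and 469 CPM in longfin and 1291 and 1166 CPM in wildtype, stood above these sums in every library. CPM are not scaled for gene length, and the sums depend on the genes listed, so this does not compare transcript amounts. Which cells carried the *klf2a* reads was not tested. The lymphatic marker *lyve1b* had 0 reads in every library. FLT4, *stab2* and MRC1 of the same list were read 84 to 221, 50 to 133 and 23 to 50 times. SAP18, from the cofactor list below, also had 0 reads in every library. Whether such zeros come from expression or from the counting was not tested. The EFNB2 gene ENSDARG00000020164 alone made up 82.6 and 97.0 CPM of the longfin sums and 92.8 and 97.8 CPM of the wildtype sums. Of 25 tested, 0 passed edgeR over all genes. An unadjusted p under 0.05 was reached by 2 as higher and 1 as lower, against 3.65% and 5.82% of all tested genes. Log2 fold changes were above 0 in 17 and below 0 in 8. The genotypes were apart in 7 as higher and 1 as lower, against 20.0% and 19.8% of all tested genes. Replicate 2 was above replicate 1 in both genotypes for 21 of the 25, against 29.8% of all tested genes. The reverse order, which *klf2a* had, was found in 30.7% of all tested genes. The part of vessel cells in the *klf2a* value was not tested.

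KLF2 and KLF4 are induced in mammalian endothelium by the kinases MEKK3 and ERK5 through MEF2 factors, and the CCM proteins hold this cascade in check. Of 18 tested genes of this cascade and of flow sensing, 0 passed over all genes with edgeR or with DESeq2. An unadjusted p under 0.05 was reached by 0 as higher and by 1 as lower, against 3.65% and 5.82% of all tested genes. The 1 was the cation channel gene TRPV4 at -0.45 ± 0.11 (SE), named after its value was seen. The most abundant members were the mechanosensitive channel gene PIEZO1, with 130 and 115 CPM in longfin and 126 and 114 CPM in wildtype, and MEF2D, with 63.1 and 64.2 CPM against 64.8 and 63.3 CPM. Log2 fold changes in the list ran from -0.45 to 0.28, with a median of 0.014.

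*klf6a* (ENSDARG00000029072, given as KLF6), an injury-responsive factor gene, had 245 and 215 CPM in the longfin libraries and 338 and 285 CPM in wildtype. The genotypes did not overlap, and the gap between the nearest libraries of the 2 genotypes was smaller than that between the wildtype libraries. The log2 fold change was -0.44 ± 0.11 (SE), it did not pass, and with 1 library left out it lay between -0.56 and -0.31. *klf3* (ENSDARG00000015495), a repressor gene whose product recruits CtBP, had 21.3 and 16.2 CPM in longfin and 28.8 and 20.4 CPM in wildtype. Its genotypes overlapped, with a log2 fold change of -0.38 ± 0.21 (SE).

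KLF5 factors keep epithelial progenitors dividing in mammals. The abundant zebrafish gene with that symbol, ENSDARG00000015506, had 61.6 and 54.4 CPM in the longfin libraries and 61.8 and 57.1 CPM in wildtype. The ranges nearly coincided, and the log2 fold change was -0.035 ± 0.10 (SE), with either sign when 1 library was left out (-0.13 to 0.052). The other KLF5 gene was read in every library but at 11 reads at most, so its level is set largely by counting error.

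KLF9, KLF11 and KLF13 belong to the branch of the family that recruits the Sin3a corepressor, and KLF11 was found in mammals as a gene induced by TGF-beta. KLF11 (ENSDARG00000013794) rose, with 63.0 and 65.7 CPM in the longfin libraries and 41.1 and 38.8 CPM in wildtype. The libraries of each genotype lay close together and the genotypes did not overlap. The longfin mean of 64.4 ± 1.90 CPM was 1.61 times the wildtype mean of 39.9 ± 1.63 CPM (n = 2 each), a log2 fold change of 0.69 ± 0.09 (SE). The call was lost without any 1 of the 4 libraries, while the fold change stayed between 0.65 and 0.73.

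The second gene with that symbol, KLF11 (ENSDARG00000030844), had 7.11 and 7.30 CPM in longfin and 4.76 and 5.01 CPM in wildtype. It was also apart between genotypes, by 1.48-fold, with a log2 fold change of 0.56 ± 0.18 (SE), and it did not pass over all genes. Both KLF11 genes therefore stood higher in both longfin libraries. The within-genotype SD of log2 CPM was 0.0513 for the first and 0.0411 for the second, where the median over tested genes was 0.152.

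*klf13* (ENSDARG00000061368) had 70.5 and 64.2 CPM in the longfin libraries and 81.5 and 60.3 CPM in wildtype. The longfin values lay between the wildtype values, and the log2 fold change of -0.071 ± 0.15 (SE) ran from -0.27 to 0.16 when 1 library was left out. *klf17* (ENSDARG00000038792), known in the zebrafish embryo from the hatching gland and early blood, was near the bottom of the measured range with 23 to 52 reads per library. It had 1.76 and 1.44 CPM in longfin and 1.24 and 2.17 CPM in wildtype, again with longfin inside the wildtype range.

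Red blood cell genes gave the setting for *klf17* and for the erythroid gene *klf1*. The 16 genes of that list summed to 156 and 154 CPM in the longfin libraries and 141 and 202 CPM in wildtype, so the longfin libraries lay inside the wildtype range as well. The hemoglobin gene *hbaa1* alone made up 79.8 and 66.7 CPM of the longfin sums and 64.6 and 83.9 CPM of the wildtype sums. Of 15 tested, 0 passed edgeR over all genes. An unadjusted p under 0.05 was reached by 0 as higher and 1 as lower, against 3.65% and 5.82% of all tested genes. Log2 fold changes were below 0 in 12 and above 0 in 3, with a median of -0.24. *klf1* had 0.81 and 2.47 CPM in longfin and 1.73 and 2.30 CPM in wildtype, and did not pass (adjusted p = 0.890).

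*klf9* (ENSDARG00000068194) is a direct target of the glucocorticoid and thyroid hormone receptors in vertebrates, and its level follows the daily cycle in several tissues. It had 13.1 and 2.47 CPM in longfin replicates 1 and 2 and 57.4 and 16.6 CPM in wildtype replicates 1 and 2. The genotypes did not overlap, but replicate 1 was 5.33 times replicate 2 in longfin and 3.46 times in wildtype. The log2 fold change of -2.21 had a standard error of 1.12, and *klf9* did not pass in this fit, which has no replicate term. It did pass with a replicate block, where 794 of the 18366 tested genes passed. *klf9* was chosen on this contrast, so both outcomes are part of the description and not a test. The labels do not say that a replicate number marks a shared batch. Left-out libraries moved the *klf9* fold change from -3.89 (without longfin replicate 1) to -1.06 (without wildtype replicate 1). Its within-genotype SD of log2 CPM was 1.48, as large as or larger than that of 99.7% of tested genes, whereas *klf4* was at 0.211.

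Some glucocorticoid and clock genes also varied widely within genotypes. The median within-genotype SD of log2 CPM in this list was 0.36. Of 27 tested, 11 were among the 5% of genes with the largest within-genotype SD, and replicate 1 was above replicate 2 in both genotypes for 22, against 30.7% of all tested genes. The following were named after their values were seen. The clock repressor gene PER1 (ENSDARG00000056885) had 32.6 and 4.01 CPM in longfin and 36.6 and 4.72 CPM in wildtype. The nuclear receptor gene NR1D1, which encodes Rev-erb alpha, had 26.6 and 4.73 CPM in longfin and 27.8 and 5.64 CPM in wildtype. For both genes replicate 1 was several-fold above replicate 2 and the genotypes nearly coincided at each replicate number.

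A few genes of the list differed both ways, as *klf9* did. FKBP5, a chaperone gene that is a standard glucocorticoid receptor target, had 89.5 and 14.5 CPM in longfin and 370 and 130 CPM in wildtype. The Rev-erb gene *nr1d2a* had 78.9 and 26.2 CPM in longfin and 234 and 93.3 CPM in wildtype. In FKBP5 both longfin values lay below both wildtype values, and in *nr1d2a* too, with log2 fold changes of -2.26 ± 1.23 and -1.63 ± 0.84 (SE). Neither passed edgeR over all genes without a replicate term (adjusted p = 0.719 and 0.699). With a replicate block *nr1d2a* passed and FKBP5 did not.

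**Figure D3:**
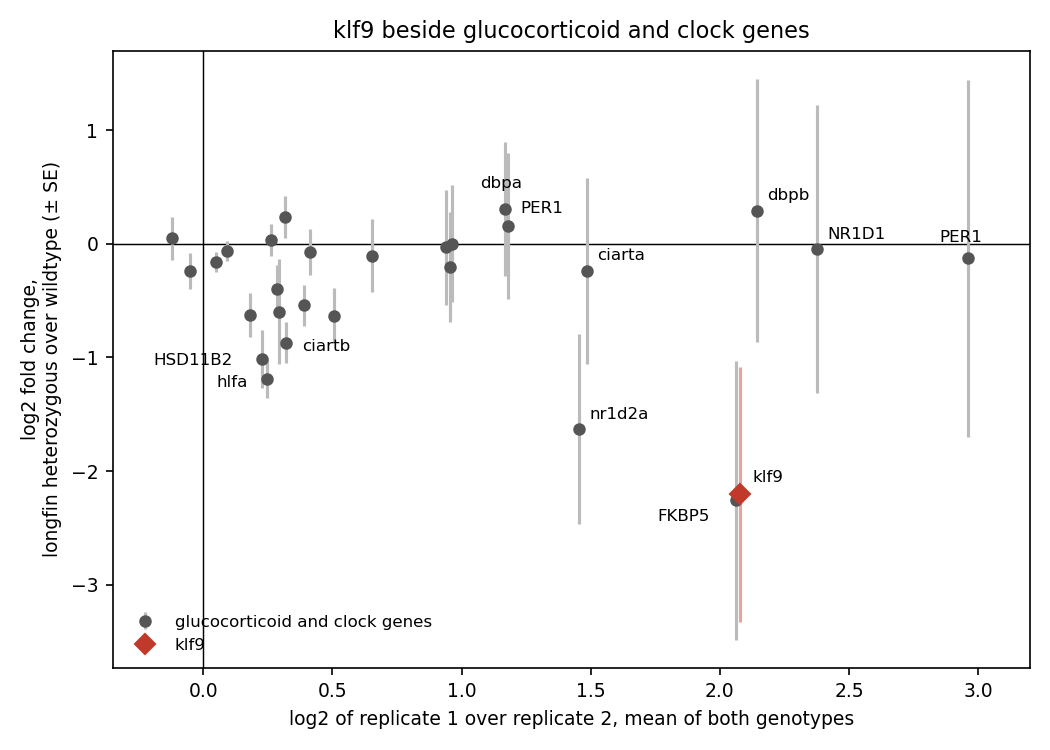
Each point is a gene, with the log2 ratio of replicate 1 over replicate 2 (mean of both genotypes) on the x axis and the log2 fold change of longfin over wildtype with its SE on the y axis. PER1, NR1D1 and *dbpb* lie far right and near 0, *klf9* (red) and FKBP5 lie far right and near -2.2, and *hlfa* and HSD11B2 lie near the left edge and below -1. The replicate ratios of HSD11B2 had opposite signs (0.71 in longfin and -0.25 in wildtype) and partly cancel in the mean.

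Over the whole list 0 of the 27 passed edgeR. An unadjusted p under 0.05 was reached by 0 as higher and 6 as lower, against 3.65% and 5.82% of all tested genes. DESeq2 called 3 as lower and 0 as higher, where it called 1.19% of genes as lower and 0.428% as higher. The genotypes did not overlap in 12, all lower in longfin, where 19.8% of tested genes were apart in that direction. The median log2 fold change was -0.16, with 20 genes below 0 and 7 above. This list too was chosen with earlier results of these data known, so its counts are a description and not a test. Many of its genes also shared a replicate order, so they are not separate observations. The most abundant members were CEBPD, with 183 and 124 CPM in longfin and 276 and 202 CPM in wildtype, and HSD11B2, the gene of a cortisol-inactivating enzyme, with 148 and 90.8 CPM against 220 and 263 CPM. The nearest to the threshold was the PAR-bZIP gene *hlfa*, with 14.9 and 14.6 CPM in longfin and 39.1 and 28.4 CPM in wildtype and an adjusted p of 0.0506 (picked on its value). The glucocorticoid receptor gene NR3C1 stood at 111 and 103 CPM in longfin and 115 and 109 CPM in wildtype.

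The rest of the family was read from a list of further Klf and Sp genes, of which 21 were counted and 20 tested. In this group 1 gene passed edgeR over all genes, as lower, and 0 as higher. Over all tested genes 0.294% passed as lower and 0.109% as higher. *klf5l* (ENSDARG00000018757) had 34.7 and 26.5 CPM in the longfin libraries and 108 and 83.9 CPM in wildtype. It fell by 1.65 ± 0.18 (SE) on the log2 scale, with an adjusted p of 0.0322, and both longfin values lay below both wildtype values. Across alternatives its adjusted p ran from 8.25e-15 to 0.123, and it did not pass without longfin replicate 1 (0.0622) or longfin replicate 2 (0.123). RefSeq places 0 genes between *klf5l* and KLF8 in the GRCz12tu assembly, and KLF8 had 16.4 and 15.8 CPM in longfin and 18.2 and 14.7 CPM in wildtype.

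No Sp gene of this list passed edgeR over all genes. SP9, known from the apical ridge of limb buds, had 180 and 171 CPM in longfin and 104 and 124 CPM in wildtype, which is 0.62 ± 0.11 (SE) as a log2 fold change (adjusted p = 0.0901). DESeq2 called it. SP6 had 187 and 147 CPM in longfin and 132 and 117 CPM in wildtype (log2 fold change 0.42, adjusted p = 0.367), and the abundant SP8 gene (ENSDARG00000011870) had 225 and 181 CPM against 187 and 161 CPM (0.22, adjusted p = 0.682). KLF15, a glucocorticoid-responsive factor gene in mammals, had 12.2 and 13.0 CPM in longfin and 9.19 and 8.81 CPM in wildtype (0.48, adjusted p = 0.339). The second SP8 gene (ENSDARG00000056666), SP2 and the KLF7 gene ENSDARG00000043821 had log2 fold changes of 0.75, 0.25 and 0.16 and did not pass, and SP7 stood at 0.022. Of the 20 tested, 15 were above 0 and 5 below, with a median of 0.16. The group leaves out the listed genes, which were chosen on this contrast, so these numbers do not describe the whole family. An unadjusted p under 0.05 was reached by 3 as higher and 1 as lower, against 3.65% and 5.82% of all tested genes.

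**Figure D4:**
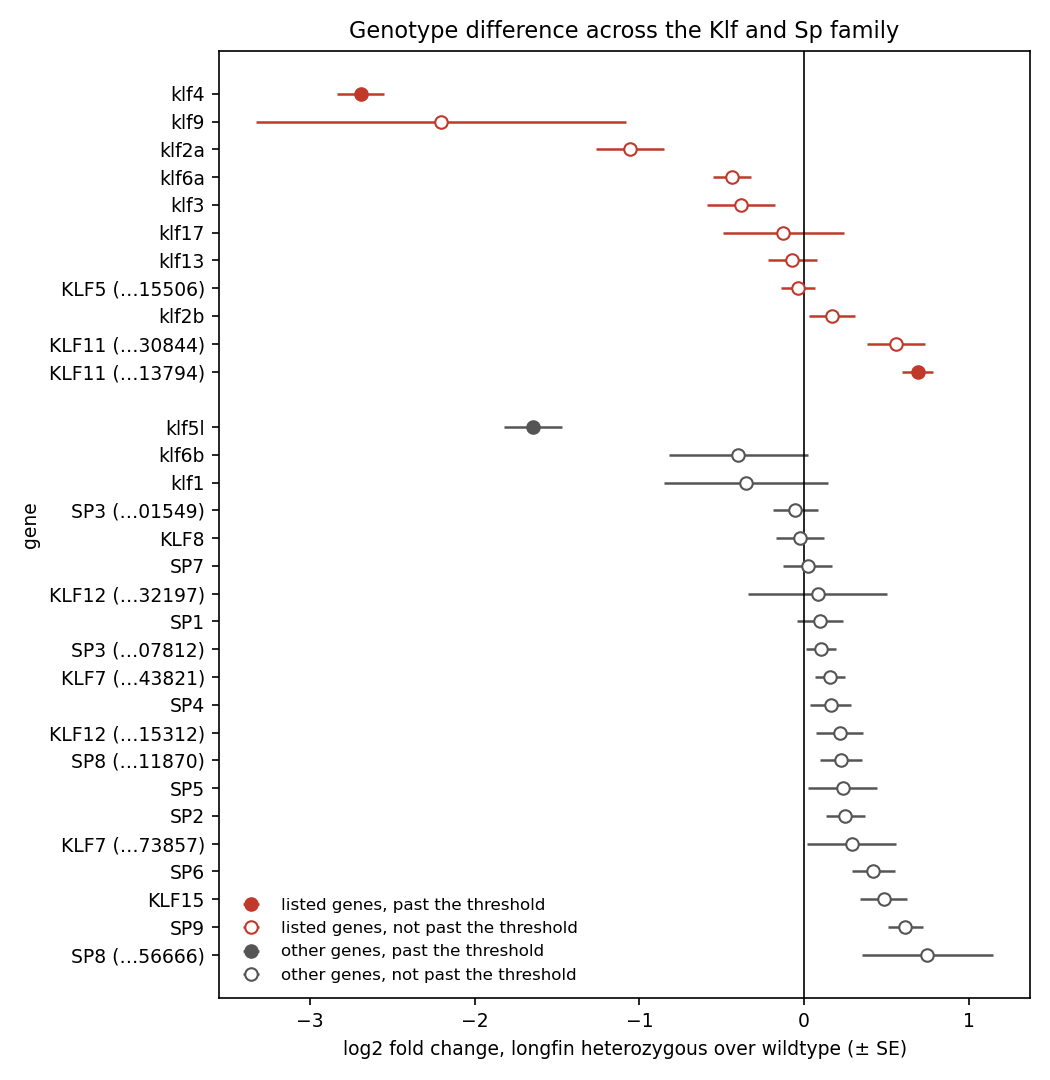
Log2 fold change of longfin heterozygous over wildtype with its SE for the 11 tested listed Krüppel-like factor genes (red) and the 20 other tested Klf and Sp genes (grey), with filled symbols for genes past an adjusted p of 0.05 in edgeR over all genes. *klf4* (-2.69), KLF11 (0.69) and *klf5l* (-1.65) are filled, and *klf9* has by far the widest error bar among the listed genes.

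Differences of cofactor genes for these factors between genotypes were small and mostly upward in longfin. Of 13 tested corepressor, coactivator and ubiquitin ligase genes, 0 passed edgeR over all genes and DESeq2 called 0. An unadjusted p under 0.05 was reached by 2 as higher and 0 as lower, against 3.65% and 5.82% of all tested genes. The 2 were *ctbp2a*, whose product is the corepressor bound by Klf3, at 0.27 ± 0.10 (SE), and a SIN3A gene (ENSDARG00000079716), at 0.24 ± 0.09, both named after their values were seen. HDAC1 was the most abundant, with 300 and 303 CPM in longfin and 290 and 306 CPM in wildtype, followed by the acetyltransferase gene EP300 (ENSDARG00000061108) at 124 and 134 CPM against 128 and 112 CPM. Log2 fold changes in the list lay between -0.037 and 0.27, with a median of 0.11, 12 above 0 and 1 below. The genotypes were apart in 6 as higher and 0 as lower, against 20.0% and 19.8% of all tested genes.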

How the data were processed

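RNA-seq libraries of fin regenerate tips were analysed from the deposited files. The authors' tools, per the submitters' processing notes, were TopHat2 and HTSeq on the GRCz11 (danRer11) build. No source used here gives versions, annotation release or strand setting, so values of genes with an overlapping antisense gene are uncertain. The deposited values are raw read counts per Ensembl gene, made by the authors and not normalized. An unnamed total row and the HTSeq classes were dropped; per library 28.7 to 41.9% of reads had no unique alignment, 7.78 to 9.31% no gene and 1.08 to 1.38% several.

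Genotype and replicate number came from sample titles. Symbols came from a table naming 29178 of the 31901 IDs, often by the human symbol. Where a zebrafish name was absent, the human symbol was used and can bring in both copies. In R 4.3.3, edgeR 4.0.16 (filterByExpr with minimum count 10 and total 15, TMM, quasi-likelihood fit with robust on and legacy off, two-sided) was fitted to all 4 libraries without a replicate term, with Benjamini-Hochberg adjustment over 18366 genes and a threshold of 0.05. CPM are mean ± SD over 2 libraries, which with 2 libraries gives little precision. A standard error is the fold change over the root of the F statistic. Within-genotype SDs used log2 CPM with a prior count of 2. The fit was tested on simulated data. Alternatives were other scalings and filters, DESeq2 1.42.0, a replicate block and each library left out. The listed genes and gene lists were chosen with earlier results of these data known. Named genes were all listed genes, the other Klf and Sp genes of lowest p or highest CPM, and per list those past the threshold or else the 1 or 2 of highest CPM. Outside this rule, TRPV4, PER1, NR1D1, *dbpb*, FKBP5, *nr1d2a*, *hlfa*, *ciartb*, *tsc22d3*, NR3C1, *ctbp2a*, SIN3A, *klf1*, KLF8, SP7, *lyve1b*, FLT4, *stab2*, MRC1 and SAP18 were named after their values were seen.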

Additional observations from a re-analysis of the deposited data

How the results depend on the processing

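The count of 74 genes past the threshold was 219 with library size only, 130 with no low count filter and 291 with DESeq2, and ran from 1 to 163 with 1 library left out. The 2 calls among listed Klf genes became 1 (*klf4*) with any 1 library left out. The 1 call among other Klf and Sp genes (*klf5l*) became 2 (with SP9) with library size only and with DESeq2, and 0 to 2 with 1 library left out. Glucocorticoid and clock genes went from 0 to 2 with library size only, 1 with no low count filter, 3 with DESeq2 and 0 to 1 with 1 library left out. Superficial epidermis, an alternative added after seeing the data, ran from 0 to 4 around its 3. The cause was not tested.

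With a replicate block the counts were 794 for all genes, 5 for listed Klf genes (adding *klf2a*, *klf6a* and *klf9*), 3 for other Klf and Sp genes (adding SP6 and SP9), 1 for the Erk5 and Mef2 list (TRPV4), 5 for glucocorticoid and clock genes (CEBPD, *ciartb*, *hlfa*, *nr1d2a* and *tsc22d3*) and 12 for superficial epidermis. The labels do not say that a number marks a shared batch, and with 2 pairs the data cannot settle it. Deviations of same-numbered libraries correlated at 0.23 across genes.

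Fold changes of the 11 listed genes tested kept their sign under each other scaling, filter and test run, except that *klf17* was not tested with a mean count of at least 50. With 1 library left out, 4 changed sign, with ranges of -0.011 to 0.33 for *klf2b*, -0.13 to 0.052 for KLF5, -0.27 to 0.16 for *klf13* and -0.43 to 0.37 for *klf17*. Depth limits *klf17* (23 to 52 reads) and the second KLF5 gene (3 to 11 reads).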
